A study of Mus musculus with 6 samples.

Results

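The expression of 10 receptors that raise or lower T cell activation was compared between induced T (iT) cells of the CD4SP (CD4 single-positive) and CD8SP subsets. The receptors were taken by name from the expression table, as Cd28, Icos, Cd226, Pdcd1, Lag3, Havcr2, Tigit, Btla, Cd160 and Cd96, and are 10 of its 23420 rows. All 10 passed the filter on low values and were among the 10476 genes tested. The data were 6 RNA-sequencing libraries, 3 of CD4SP and 3 of CD8SP iT cells, each made from an aliquot of 1000 cells sorted from the spleen.

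The iT cells of both populations descend from C57BL/6 embryonic stem cells with a doxycycline-inducible Runx1-p2a-Hoxa9 cassette in the Rosa26 locus (iR9 cells). Progenitors made from them in culture with doxycycline were transplanted into irradiated B-NDG mice, an immunodeficient NOD strain carrying the Prkdc scid mutation and lacking Il2rg. The study describes these transplantations as done without doxycycline, and it describes mice given doxycycline in an analysis of gut and lung, without saying which treatment applied to the mice sequenced. Cells with the donor form of CD45 were sorted for CD4 or for CD8. This gate, as the study gives it, names neither CD3 nor NK1.1. The study calls each column a biological replicate but the labels name no mouse, so the p-values measure the spread between these libraries. No T cells from an unmanipulated mouse are part of this comparison.

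A T cell needs a costimulatory signal beside its antigen receptor to respond fully, and CD28, which binds CD80 and CD86 on antigen-presenting cells, is the classical source of it. ICOS is a relative of CD28 that is induced on activation and supports helper and regulatory T cells. Inhibitory receptors such as PD-1 (Pdcd1), LAG-3 (Lag3), TIM-3 (Havcr2), TIGIT (Tigit) and BTLA (Btla) restrain the response, and they are induced by activation and kept at high levels on chronically stimulated cells. Several members compete for a common ligand, since CD226 activates while TIGIT and CD96 inhibit on binding the poliovirus receptor and nectin family, and BTLA and CD160 both bind HVEM (Tnfrsf14).

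Icos, Cd28 and Btla were higher in CD4SP iT cells, by 5.29-fold, 2.79-fold and 2.09-fold, and Cd160 was higher in CD8SP iT cells, by 3.67-fold. Pdcd1 and Tigit were higher in CD4SP libraries by less than 2-fold, and Cd226, Lag3, Havcr2 and Cd96 did not pass the test. Folds are on the scale of log2(TPM + 1), where TPM is a transcript level corrected for gene length and scaled to a fixed library total. A gene counted as called when it differed more than 2-fold and limma gave an adjusted p below 0.05. By this rule 4 of the 10 receptors were called (40.0%), against 9.73% of all tested genes. The 3 called toward CD4SP stand against a background of 7.92%, and the 1 called toward CD8SP against 1.80%. On the adjusted p alone 6 of the 10 passed, against 20.8% of all genes. The 3 CD4SP libraries all lay above the 3 CD8SP libraries for 6 receptors, against 36.6% of all genes, and the reverse held for 1, against 6.61%. The median log2 fold change was 0.47 over the 10 receptors and 0.28 over all tested genes. The differences of Cd28, Btla, Cd160, Tigit and Pdcd1 are therefore also given relative to 0.28. In bulk samples, fewer cells of a type and less RNA per cell cannot be told apart.

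**Figure D1:**
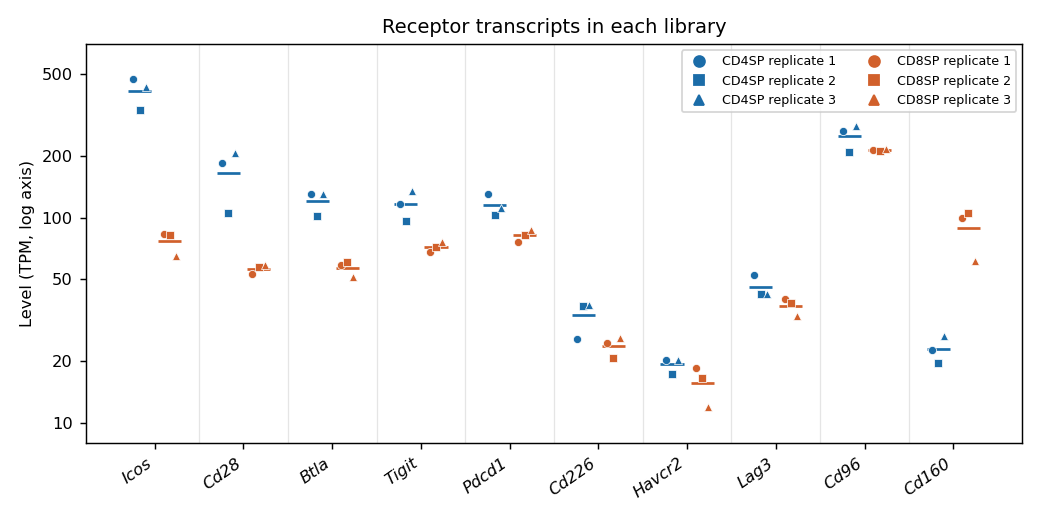
Level of each receptor (TPM, log axis) in the 6 libraries, ordered by fold change, with symbols for the replicates and a line at the mean of each population. CD4SP and CD8SP points are apart for Icos, Cd28, Btla, Tigit, Pdcd1, Lag3 and Cd160, and they overlap for Cd226, Havcr2 and Cd96.

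The sort and the libraries were checked first. Cd4 was at 279 to 331 TPM across CD4SP replicates and at no more than 0.104 TPM across CD8SP replicates, and the summed level of Cd8a and Cd8b1 was 24.9 to 38.9 TPM across CD4SP replicates, against 3236 to 3562 TPM across CD8SP replicates. All 8 T cell markers, Cd3e and Lck among them, were present in each library. The libraries listed 9971 to 10649 genes at 1 TPM or more. TPM keep no sequencing depth, so the depth is unknown and no counting interval can be given. CD4SP replicate 2 stood lower than its replicates, with the lowest CD4SP value for 9 of the 10 receptors and for 57.9% of all tested genes. Its median absolute log2 difference was taken only over genes with a high mean level. It was 0.296 from CD8SP replicate 1, against 0.297 and 0.313 from the other CD4SP libraries. CD8SP replicate 3 had the lowest CD8SP value for 5 of the receptors and for 56.3% of all tested genes. CD8SP replicates 1 and 2 were closer to each other (median absolute log2 difference 0.0750, over the genes with a high mean level) than any other replicate pair (0.1697 to 0.313).

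Sequences upstream of the annotated start, from RefSeq (build GRCm38.p6), were matched by symbol and used for 6 of the 10 receptors: Btla, Cd160, Cd96, Havcr2, Pdcd1 and Tigit. The windows of Btla and of the 2 start sites of Cd160 are shown, since these receptors share a ligand and were called in opposite directions, with that of Tigit as a further member that was higher in CD4SP libraries. Each window holds the 250 bases before the start, written 5′ to 3′ on the strand of the gene. Capitals mark matches on either strand to a Runx core (TGTGGT), a T-box half-site (AGGTGTGA), an AP-1 site (TGANTCA) or a TCF/LEF core (CTTTGA), and no marked matches overlap. The Btla window is chr16:45224087-45224336 on the plus strand, of which 22 bases are annotated as exon. The Cd160 windows are chr3:96829352-96829601 for the outer start and chr3:96814522-96814771 for the inner start, both on the minus strand, and the Tigit window is chr16:43664185-43664434 on the minus strand.
Btla: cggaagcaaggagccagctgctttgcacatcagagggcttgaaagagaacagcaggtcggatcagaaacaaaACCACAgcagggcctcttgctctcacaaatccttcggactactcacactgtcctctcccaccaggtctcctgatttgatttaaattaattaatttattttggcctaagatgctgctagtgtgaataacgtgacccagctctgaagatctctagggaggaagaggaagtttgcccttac
Cd160, outer start: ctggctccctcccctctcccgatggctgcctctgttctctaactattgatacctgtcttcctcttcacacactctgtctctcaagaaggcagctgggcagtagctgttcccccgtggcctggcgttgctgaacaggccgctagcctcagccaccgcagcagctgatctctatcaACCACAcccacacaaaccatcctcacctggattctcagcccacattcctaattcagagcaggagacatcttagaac
Cd160, inner start: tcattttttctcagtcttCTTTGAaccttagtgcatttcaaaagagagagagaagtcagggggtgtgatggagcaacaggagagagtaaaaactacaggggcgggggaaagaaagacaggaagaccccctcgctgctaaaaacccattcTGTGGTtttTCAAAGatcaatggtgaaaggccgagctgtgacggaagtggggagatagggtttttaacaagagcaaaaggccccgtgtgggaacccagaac
Tigit: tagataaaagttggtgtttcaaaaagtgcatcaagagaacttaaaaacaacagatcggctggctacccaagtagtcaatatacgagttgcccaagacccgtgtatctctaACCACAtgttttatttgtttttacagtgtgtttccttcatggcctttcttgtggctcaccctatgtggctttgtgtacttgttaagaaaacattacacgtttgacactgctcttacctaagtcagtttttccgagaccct

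The Runx core was found 178 bases before the start of Btla, 76 and 101 bases before the outer and inner starts of Cd160, and 140 bases before the start of Tigit. Over all members, 6 of 7 windows (5 of 6 genes, Pdcd1 being the exception) held it, against 14.0% of 32851 mouse windows of this length. The TCF/LEF core occurred 232 and 92 bases before the inner start of Cd160 and in none of the other member windows, against 13.8% of all windows. The only AP-1 match among the members was in Havcr2, 200 bases before its start (6.75% of all windows), and none held the T-box half-site (1.12%). A match is only a run of letters, and the Runx core was present whether a receptor was higher in CD4SP, higher in CD8SP or not called.

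The costimulatory receptors are described next, beginning with those of the CD28 family. Cd28 (chromosome 1, 60716800 to 60773359, plus strand, protein coding) had levels of 184, 105 and 206 TPM for replicates 1 to 3 of CD4SP, against 52.99, 57.7 and 58.5 TPM for replicates 1 to 3 of CD8SP, the order used for every gene. All CD4SP values were above all CD8SP values, and the CD4SP values had the highest coefficient of variation of the 10 receptors in that population (32.0%), replicate 2 being the lowest. The log2 fold change was 1.48 (SE 0.233, adjusted p by limma 0.00381). It was 1.19 above the median of all genes.

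Icos (chromosome 1, 60977927 to 61000320, plus strand, protein coding) was at 471, 334 and 432 TPM across CD4SP replicates and at 82.8, 82.4 and 65.3 TPM across CD8SP replicates. It was the most abundant of the 10 receptors in CD4SP iT cells and had the largest difference of them on the values as deposited, with a log2 fold change of 2.40 (SE 0.163, adjusted p by limma 5.41e-05). Its fold change exceeded those of 98.9% of all tested genes. After median-of-ratios rescaling it was 2.097, and that of Cd160 was larger in size, at -2.18.

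Ctla4, the inhibitory relative that competes with CD28 for CD80 and CD86, lies between Cd28 and Icos. The gap is 113.6 kb from the end of Cd28 to Ctla4 and 62.1 kb from Ctla4 to Icos. Ctla4 was at 866, 814 and 937 TPM across CD4SP replicates, against 144, 149.6 and 124 TPM across CD8SP replicates, with a log2 fold change of 2.64 (SE 0.117, adjusted p by limma 6.38e-06), so all of these neighbours were higher in CD4SP iT cells. Within each library, which removes the scaling, Cd28 was at 0.187 ± 0.0501 (SD, n = 3) of the Ctla4 level in CD4SP and at 0.409 ± 0.0547 (SD, n = 3) in CD8SP libraries. CD4SP iT cells thus had more transcripts of both, and fewer Cd28 transcripts per Ctla4 transcript.

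Cd226 (chromosome 18, 89176967 to 89272229, plus strand, protein coding), which encodes the activating receptor DNAM-1, was at 25.6, 37.2 and 37.6 TPM across CD4SP replicates. In CD8SP libraries it was at 24.6, 20.7 and 25.9 TPM. The populations overlapped through CD4SP replicate 1, which lay within the CD8SP range. The log2 fold change was 0.46 (95% interval 0.021 to 0.90, adjusted p by limma 0.121), and without CD4SP replicate 1 it was 0.64 with an adjusted p of 0.0499, under the 2-fold limit.

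**Figure D2:**
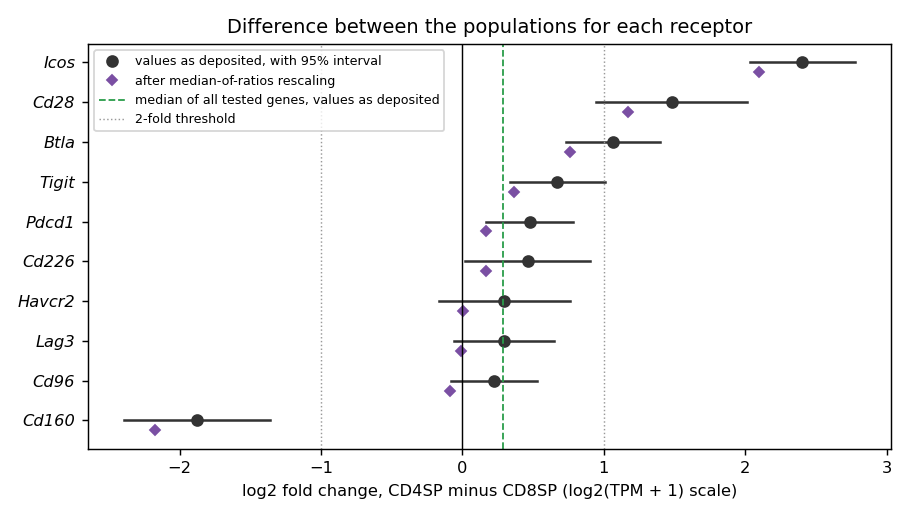
Log2 fold change of each receptor, CD4SP minus CD8SP, on the log2(TPM + 1) scale with its 95% interval (circles and lines), and the same after median-of-ratios rescaling (diamonds). Icos (2.40), Cd28 (1.48), Btla (1.06) and Cd160 (-1.88) lie beyond the dotted 2-fold limits, and rescaling brings Btla to 0.76 and Lag3, which lies at the dashed median of all genes (0.28), to -0.0074.

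Of the inhibitory receptors, Btla and Cd160 were called, in opposite directions. Btla (chromosome 16, 45224315 to 45257670, plus strand, protein coding) was at 129.5, 102 and 130.4 TPM across CD4SP replicates, against 58.6, 60.7 and 51.6 TPM across CD8SP replicates. The populations did not overlap. Its log2 fold change of 1.06 (SE 0.145, adjusted p by limma 0.00202) was close to the 2-fold limit and 0.78 above the median of all genes. It fell under that limit, with the adjusted p still below the threshold, after median-of-ratios rescaling (0.76), quantile normalization (0.81) and removal of ribosomal protein genes (0.90), and without CD8SP replicate 3 (0.995).

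Cd160 (chromosome 3, 96798763 to 96829351, minus strand, protein coding), a receptor of NK cells and cytotoxic T cells, was at 22.6, 19.6 and 26.5 TPM across CD4SP replicates. In CD8SP libraries it was at 99.5, 104.9 and 61.1 TPM, so that replicate 3 was well below the other CD8SP libraries and still above every CD4SP library. The log2 fold change was -1.88 (SE 0.225, adjusted p by limma 0.00107), or -2.16 relative to the median of all genes, and it was -2.12 without CD8SP replicate 3. It was lower than those of all but 0.687% of tested genes. Cd160 shares 68 bases of exon (2.57% of its exon length) with Pdzk1 on the opposite strand, and whether strand was used in counting is not stated.

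Markers of NK cells moved with Cd160: the summed level of the 8 fixed markers was 1949 to 2083 TPM across CD4SP replicates, against 8344 to 8511 TPM across CD8SP replicates, 6 of 8 being higher in every CD8SP library (6.61% of all tested genes were). That list is summed largely from Nkg7 and Gzma, which cytotoxic T cells also express. The NK-restricted genes Ncr1 and Klra8 were listed at 0 in all 6 libraries, and Klrb1c, which encodes NK1.1 in C57BL/6 mice, was at 0.682 to 1.82 TPM across CD4SP replicates, against 5.22 to 9.14 TPM across CD8SP replicates. The part of NK cells in the difference in Cd160 was not tested.

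Tigit (chromosome 16, 43648867 to 43664146, minus strand, protein coding) was at 117, 96.4 and 134 TPM across CD4SP replicates, against 67.7, 72.0 and 75.6 TPM across CD8SP replicates. These did not overlap, and the log2 fold change of 0.67 (SE 0.148, adjusted p by limma 0.0157) was 0.39 above the median of all genes. After median-of-ratios rescaling it was 0.37 with an adjusted p of 0.0738, and over all alternatives the adjusted p ran from 0.00518 to that value. With a library left out the adjusted p exceeded 0.05 without CD4SP replicate 3 (0.0515), CD8SP replicate 1 (0.0701) or CD8SP replicate 2 (0.0587).

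Pdcd1 (chromosome 1, 94038305 to 94052553, minus strand, protein coding), which encodes PD-1, was at 130.1, 103 and 111 TPM across CD4SP replicates, against 76.2, 82.5 and 87.0 TPM across CD8SP replicates. The populations did not overlap, but the difference was small, with a log2 fold change of 0.47 (SE 0.134, adjusted p by limma 0.0390) that was 0.19 above the median of all genes. It was 0.17 (adjusted p 0.386) after median-of-ratios rescaling. With a library left out, the adjusted p was under 0.05 only without CD4SP replicate 2 (0.0182), and it was 0.0646 to 0.156 in the other fits.

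Lag3, Havcr2 and Cd96 did not pass the test. Lag3 (chromosome 6, 124904361 to 124911705), whose product binds MHC class II, was at 52.7, 42.3 and 42.6 TPM across CD4SP replicates, against 40.2, 38.4 and 32.99 TPM across CD8SP replicates. Its populations did not overlap, yet the log2 fold change of 0.29 (95% interval -0.060 to 0.65, adjusted p by limma 0.204) was that of the median gene and became -0.0074 after median-of-ratios rescaling. Havcr2 (chromosome 11, 46454935 to 46481255) was the least abundant receptor in both populations, at 20.3, 17.3 and 20.2 TPM across CD4SP replicates, against 18.5, 16.6 and 11.96 TPM across CD8SP replicates. Its log2 fold change was 0.30 (95% interval -0.16 to 0.76, adjusted p by limma 0.314), turning to -0.039 under quantile normalization.

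Cd96 (chromosome 16, 46035657 to 46120251) was abundant in both populations, at 263, 208 and 279.8 TPM across CD4SP replicates, against 212, 211 and 216 TPM across CD8SP replicates. The CD8SP values had a coefficient of variation of 1.21% and lay between the CD4SP values of replicate 2 and replicates 1 and 3. The log2 fold change was 0.22 (95% interval -0.082 to 0.52, adjusted p by limma 0.260) and became -0.086 after median-of-ratios rescaling, whereas without CD4SP replicate 2 it was 0.35 with an adjusted p of 0.0253. The 95% intervals of Lag3, Havcr2 and Cd96 all end below the 2-fold limit.

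The order of the receptors by level differed between the populations. In CD4SP iT cells Icos (412 ± 70.4 TPM, SD, n = 3) stood above Cd96 (250.3 ± 37.5), and both stood apart from the genes below them. Cd28 (165 ± 52.9), Btla (121 ± 16.3), Tigit (116 ± 19.0) and Pdcd1 (115 ± 14.1) followed, each overlapping its neighbour in the order. Lag3 (45.9 ± 5.89) and then Cd226 (33.5 ± 6.80) came next without overlap, and Cd226, Cd160 (22.9 ± 3.47) and Havcr2 (19.3 ± 1.72) overlapped from neighbour to neighbour.

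In CD8SP iT cells Cd96 (213 ± 2.57 TPM, SD, n = 3) was the highest, apart from Cd160 (88.5 ± 23.9), Pdcd1 (81.9 ± 5.46), Icos (76.8 ± 10.01) and Tigit (71.8 ± 3.99), which overlapped from neighbour to neighbour. Btla (56.9 ± 4.77) and Cd28 (56.4 ± 2.96) overlapped with each other and with no other receptor next to them. Lag3 (37.2 ± 3.73), Cd226 (23.8 ± 2.72) and Havcr2 (15.7 ± 3.38) closed the order without overlap. By mean level, Cd160 thus moved from the 9th place in CD4SP to the 2nd in CD8SP iT cells. Icos moved from the 1st to the 4th. In CD8SP replicate 3, Cd160 (61.1 TPM) lay below Pdcd1 (87.0 TPM), Tigit (75.6 TPM) and Icos (65.3 TPM).

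The summed level of the 10 receptors was 1415, 1065 and 1421 TPM across CD4SP replicates, against 733, 746 and 686 TPM across CD8SP replicates. The make-up of that sum does not depend on the scaling of a library. Icos took 31.7% ± 1.43 (SD, n = 3) of it in CD4SP and 10.6% ± 0.958 in CD8SP libraries. Cd160 took 1.77% ± 0.147 and 12.2% ± 2.84, and Cd96 took 19.3% ± 0.598 and 29.5% ± 1.70, respectively. Since the shares add up to the whole, the larger share of Icos in CD4SP libraries bears on those of the other receptors. Cd28 (12.5% ± 2.34 and 7.83% ± 0.657) and Btla (9.30% ± 0.226 and 7.88% ± 0.318) also took a larger share in every CD4SP library. The shares, computed after the values were seen, are given as a description, and those of Cd226 and Tigit overlapped between the populations. The shares of Pdcd1 (8.88% ± 0.964 and 11.4% ± 1.19), Lag3 (3.56% ± 0.503 and 5.14% ± 0.332) and Havcr2 (1.49% ± 0.112 and 2.164% ± 0.395) were lower in every CD4SP library, whereas their mean TPM were higher in CD4SP.

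**Figure D3:**
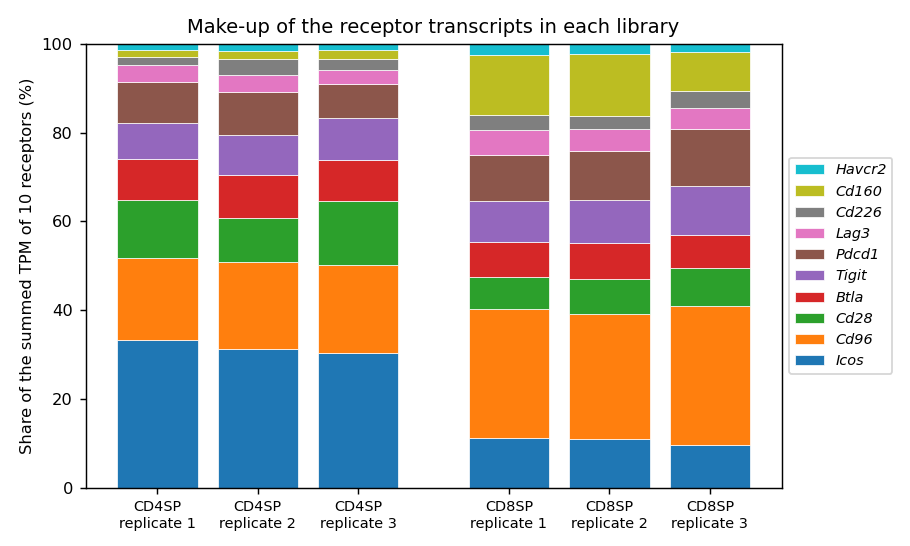
Share of each receptor in the summed TPM of the 10 receptors (%), with a bar for each library. The bars of a population resemble each other, with Icos at 30.4% to 33.2% in CD4SP and 9.52% to 11.3% in CD8SP libraries, and Cd160 at 1.60% to 1.86% and 8.91% to 14.1%.

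Receptors that share a ligand or act on the same cell were then compared as ratios within each library, in 8 pairs. With 3 libraries against 3, the exact two-sided permutation p cannot be lower than 0.1, which is 0.16 after Benjamini-Hochberg adjustment over the 8 pairs, and 5 pairs without overlap reached this value. Btla was at 5.29 ± 0.408 (SD, n = 3) times the level of Cd160 in CD4SP and at 0.670 ± 0.150 times in CD8SP libraries. The HVEM receptors were thus mostly Btla in CD4SP and more often Cd160 than Btla in CD8SP iT cells at the transcript level. Icos was at 3.59 ± 0.326 times the level of Pdcd1 in CD4SP and at 0.945 ± 0.175 times in CD8SP libraries. Cd28 was at 0.394 ± 0.0805 and 0.745 ± 0.134 times the level of Icos, respectively.

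Among the receptors for the poliovirus receptor and nectins, Tigit was at 0.463 ± 0.0179 (SD, n = 3) times the level of Cd96 in CD4SP and at 0.337 ± 0.0166 times in CD8SP libraries, without overlap. For the activating member against either inhibitory member the populations overlapped. Cd226 was at 0.295 ± 0.0848 times the level of Tigit in CD4SP and 0.332 ± 0.0395 in CD8SP libraries (exact permutation p 0.6, log2 difference -0.21, or -0.42 to -0.020 with a library left out), and at 0.137 ± 0.0409 and 0.112 ± 0.0116 times the level of Cd96 (exact permutation p 0.5, log2 difference 0.24, or 0.029 to 0.46). The ratio of Pdcd1 to Lag3 was 2.50 ± 0.0873 and 2.23 ± 0.377 (exact permutation p 0.4).

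**Figure D4:**
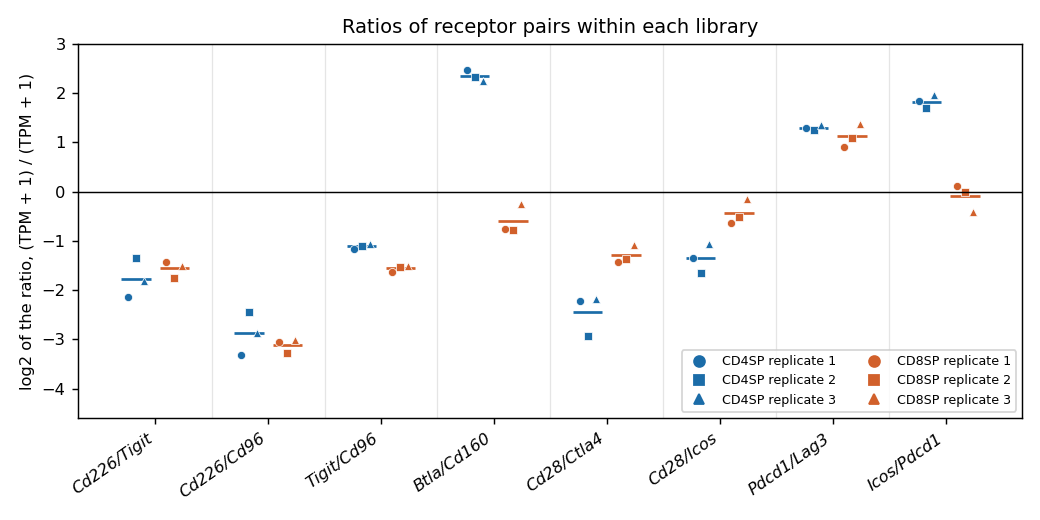
Log2 of the ratio of (TPM + 1) values of 8 receptor pairs in each library, with a line at the mean of each population and a black line at equal levels. The populations are apart for Tigit/Cd96, Btla/Cd160, Cd28/Ctla4, Cd28/Icos and Icos/Pdcd1, and Btla/Cd160 crosses equality, from a mean of 2.35 in CD4SP to -0.59 in CD8SP libraries.

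The partners of the receptors were examined in the same fit. Of 15 genes for ligands and counter-receptors, 9 passed the filter and 3 were called, all toward CD4SP (33.3%, against 7.92% of all genes): Cd274 (PD-L1), Pdcd1lg2 (PD-L2) and Cd80. The median log2 fold change of the 9 was 0.16. Of the 9, 3 were higher in every CD4SP library, against 36.6% of all tested genes, and 2 in every CD8SP library, against 6.61%. Cd274 was at 51.0, 29.2 and 17.7 TPM across CD4SP replicates, against 10.02, 10.3 and 5.48 TPM across CD8SP replicates, apart but widely spread (log2 difference 1.73, with limma's adjusted p at 0.0147). Pdcd1lg2 was at 7.54, 4.97 and 9.13 TPM across CD4SP replicates, against 2.11, 2.06 and 2.08 TPM across CD8SP replicates (log2 difference 1.38, with limma's adjusted p at 0.00829). Cd80 was at 1.96 to 4.72 TPM in CD4SP and, in CD8SP, at 1.09 TPM for replicate 1, with zeros for replicates 2 and 3 (adjusted p by limma 0.0316). Cd80 passed the filter only through CD4SP libraries, and without it 2 of 8 ligands were called, with a median log2 fold change of 0.043. Cd80 was not called in 8 of 15 alternatives, among them median-of-ratios, quantile normalization and the fits without CD4SP replicate 1 or 3 or CD8SP replicate 2 or 3. Without CD8SP replicate 3, Pdcd1lg2 was the only ligand called. With a filter of 5 TPM, Cd274 was the only ligand called, but Pdcd1lg2 and Cd80 did not pass that filter and were not tested. That setting is among the 8 in which Cd80 was not called.

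The other ligands at 10 TPM or more were not called. Lgals9, which encodes a ligand of TIM-3, was at 360 ± 58.0 TPM (SD, n = 3) across CD4SP replicates, against 377 ± 43.8 in CD8SP libraries, and Lgals3 was at 503 ± 8.31 and 653 ± 21.2 TPM, a log2 fold change of -0.37 (adjusted p by limma 0.0260) under the 2-fold limit. Hmgb1 was at 84.9 ± 16.4 and 66.9 ± 7.60 TPM, Cd86 at 16.0 ± 2.38 and 22.0 ± 1.88 TPM, and Pvr, the ligand of CD226, TIGIT and CD96, at 13.5 ± 3.78 and 11.7 ± 1.46 TPM. Hmgb1, Cd86, Pvr and Lgals9 did not pass the test. Tnfrsf14, which encodes HVEM, was at 5.51, 0 and 1.23 TPM across CD4SP replicates, against 3.42, 4.16 and 1.19 TPM across CD8SP replicates (adjusted p by limma 0.531). Icosl, Ceacam1, Fgl1 and the 3 nectin genes did not pass the filter.

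Of 10 other surface receptors of this kind, 9 were tested and 7 called (77.8%, against 9.73% of all genes), 3 toward CD4SP and 4 toward CD8SP. Beside Ctla4, Cd200r1, an inhibitory receptor for CD200, and Klrg1, an inhibitory lectin of differentiated T and NK cells, were higher in CD4SP iT cells. Cd200r1 was at 45.4 ± 8.63 TPM (SD, n = 3) across CD4SP replicates, against 3.77 ± 1.10 TPM across CD8SP replicates (log2 difference 3.29, with limma's adjusted p at 7.3e-05). Klrg1 was at 82.6 ± 5.02 and 23.2 ± 4.37 TPM (log2 difference 1.80, with limma's adjusted p at 0.000257).

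Crtam, Lair1, Cd244 and Pilrb1 were higher in CD8SP iT cells. Crtam, which encodes a nectin-like adhesion receptor of activated CD8 and NK cells, was at 7.002 ± 2.08 TPM (SD, n = 3) across CD4SP replicates, against 86.7 ± 5.13 TPM across CD8SP replicates (log2 difference -3.48, with limma's adjusted p at 2.41e-05), the largest difference toward CD8SP among these receptors. Lair1, a collagen receptor, was at 3.91 ± 1.46 and 13.2 ± 0.690 TPM (adjusted p by limma 0.00485), and Cd244, a SLAM family receptor, at 1.67 ± 0.816 and 5.78 ± 1.41 TPM (adjusted p by limma 0.0160). Pilrb1 was listed at 0 in all CD4SP libraries and was at 3.07 to 4.17 TPM across CD8SP replicates, so that it passed the filter only through the population where it is high. Without Pilrb1, 6 of 8 tested receptors were called. Vsir, listed under its older name 4632428N05Rik, was at 101 ± 1.997 and 82.3 ± 0.591 TPM and was not called (adjusted p by limma 0.0978).

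**Figure D5:**
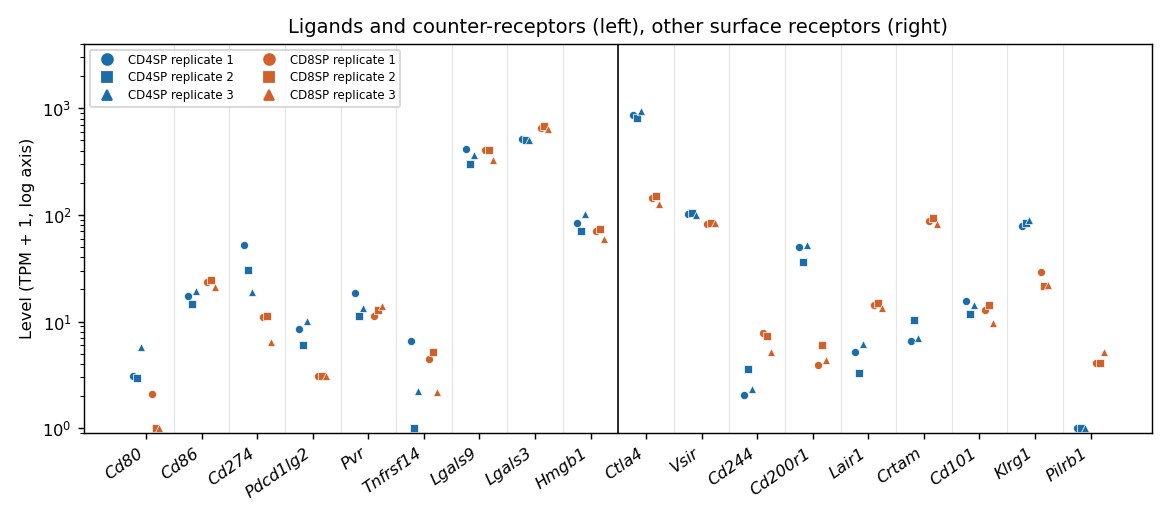
Level (TPM + 1, log axis) in the 6 libraries of the tested ligands and counter-receptors (left of the black line) and of the other surface receptors (right). Among the ligands, Cd274, Pdcd1lg2 and Cd80 are higher in every CD4SP library, and Cd86 and Lgals3 are higher in every CD8SP library. Among the receptors Ctla4, Cd200r1 and Klrg1 are higher in CD4SP while Crtam, Lair1, Cd244 and Pilrb1 are higher in CD8SP libraries.

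The costimulatory receptors of the TNF receptor family, were listed with the ligand Cd40lg. Of 8 genes, 7 were tested and 5 were called toward CD4SP (71.4%, against 7.92% of all genes), with a median log2 fold change of 2.20, against 0.28 over all genes. Tnfrsf4 (OX40) was at 1161 ± 38.4 TPM (SD, n = 3) across CD4SP replicates, against 42.6 ± 4.93 TPM across CD8SP replicates (log2 difference 4.74, with limma's adjusted p at 2.38e-07). Tnfrsf18, Tnfrsf25, Tnfrsf1b and Cd40lg were the other called genes, and Cd27 and Tnfrsf9 were not called. Tnfrsf9 was at 21.6, 110.5 and 115.4 TPM across CD4SP replicates, against 24.2, 22.2 and 15.3 TPM across CD8SP replicates. Its log2 difference was 1.65 (adjusted p by limma 0.0714), and 6 genes of the list were called without CD4SP replicate 1. Cd40lg passed the filter only through CD4SP libraries, at 40.1 to 53.4 TPM against at most 0.389 TPM in CD8SP. Without it 4 of 6 were called and the median was 1.997.

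Of 32 signalling genes, all tested, 3 were called, toward CD4SP (9.38%, close to the 9.73% of all genes), and their median log2 fold change of 0.33 was near that of all genes. Trat1, an adaptor of the antigen receptor complex, was at 98.0 ± 32.5 TPM (SD, n = 3) across CD4SP replicates, against 10.3 ± 1.81 TPM across CD8SP replicates (log2 difference 3.10, with limma's adjusted p at 0.000126). Ptpn11, which encodes the phosphatase SHP-2 recruited by PD-1 and BTLA, had a log2 fold change of 1.02 (adjusted p by limma 0.00595), and Sh2d1a, the adaptor SAP, one of 1.06 (adjusted p by limma 0.00815). Neither was called after median-of-ratios or quantile normalization, with ribosomal protein genes removed or without CD8SP replicate 3, each of which left Trat1 as the only call. Ptpn11 was also not called without CD4SP replicate 3, nor Sh2d1a without CD4SP replicate 2.

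Of 19 transcription factors associated with inhibitory receptor expression, 16 were tested and 8 called, against 9.73% of all genes. Maf, Nr4a1, Egr2, Prdm1, Nfatc1, Bcl6 and Irf4 were higher in CD4SP iT cells, with log2 fold changes from 1.19 for Irf4 to 4.02 for Maf. Bcl6, at 2.04 to 3.16 TPM in CD4SP and 0.326 to 0.676 TPM in CD8SP, passed the filter only through CD4SP libraries, and 7 of 15 were called without it. Eomes was higher in CD8SP iT cells, at 9.34 ± 1.22 TPM (SD, n = 3) across CD4SP replicates, against 52.2 ± 2.85 TPM across CD8SP replicates (adjusted p by limma 5.52e-05). Tox, a factor tied to high PD-1 on chronically stimulated cells, was tested and not called.

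Markers of regulatory T cells, which express Icos, Ctla4 and Tigit, moved with the receptors that were higher in CD4SP libraries. The summed level of the 6 fixed markers, of which Ctla4 and Tnfrsf18, both described above, make up the most, was 1686 to 2058 TPM across CD4SP replicates, against 308 to 346 TPM across CD8SP replicates, 5 of 6 being higher in every CD4SP library (36.6% of all tested genes were). Foxp3, the defining factor of this lineage, was at 142, 6.56 and 167 TPM across CD4SP replicates, against 7.48, 7.48 and 10.05 TPM across CD8SP replicates. In CD4SP replicate 2 Foxp3 was below the CD8SP values, while the other markers of the list, among them Il2ra (92.0 TPM), Ikzf2 (35.6 TPM) and Il10 (24.7 TPM), were above every CD8SP library. Without CD4SP replicate 2 the log2 fold change was 2.55 for Icos, 1.77 for Cd28 and 1.18 for Btla. That library held the lowest CD4SP value for 57.9% of genes, and leaving it out also raised the median over all genes, from 0.28 to 0.37. Larger folds in this fit are thus not particular to these receptors. Among the follicular helper markers, Bcl6 and Il21 did not exceed 3.47 TPM in any library and Ascl2 was listed at 0, while 4 of the 5 were higher in every CD4SP library, against the same 36.6%. The part of such cells in these differences was not tested.

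The defining genes of several other lineages were at 0. The B cell genes Pax5 and Ms4a1, the myeloid genes S100a8 and S100a9 and the dendritic cell gene Cd209a were listed at 0 in all libraries. The summed myeloid markers were at 17.1 to 31.5 TPM across CD4SP replicates, against 3.64 to 9.09 TPM across CD8SP replicates, nearly all from Lyz2, and those of B cells at 17.6 to 23.9 and 27.4 to 29.3 TPM. The summed dendritic cell markers were at 3.86 to 8.49 and 21.0 to 22.7 TPM. The CD8SP sum came mostly from Itgax (17.2 to 18.1 TPM), an integrin that activated T cells also carry. The CD4SP sum came mostly from Xcr1 (3.78 to 6.20 TPM). Of 4 fixed markers of gamma-delta T cells, 3 had a row and Sox13 was listed at 0, with sums of 26.3 to 38.7 and 58.7 to 82.5 TPM. Of the 7 myeloid markers, Lyz2 was the 1 that was higher in every CD4SP library, against 36.6% of all tested genes. The others did not exceed 0.894 TPM in any library. Among the ligands, Cd274, Pdcd1lg2 and Cd80 were higher in every CD4SP library, whereas Cd86 and Lgals3 were higher in every CD8SP library. The part of myeloid cells in these differences was not tested.

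For each called receptor, the 3 tested genes whose log2(TPM + 1) values over the 6 libraries lay closest to it, by Euclidean distance, are named as a description of like pattern. They were Nt5e, Igfbp4 and Tspan13 for Cd28 (distances 0.724 to 0.745), and Tspan32, Cd5 and Ifitm3 for Icos (0.882 to 1.20). For Btla they were Rasgrp1, Ccr2 and Tspan14 (0.221 to 0.345), and for Cd160 they were Amica1, Armc7 and Pde2a (0.764 to 1.003).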

How the data were processed

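The cDNA of sorted aliquots was amplified with a whole-transcriptome kit and libraries were made with a transposase kit. The authors aligned reads to mm10 with HISAT2, estimated levels with StringTie and deposited TPM, with a column per library (23420 rows, 2 names repeated). The annotation, the use of strand and the treatment of duplicate reads are not given in the sources used here. Because TPM share a fixed total, a class of transcripts that takes more of a library lowers all others. No count test was used, as TPM are not counts.

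Genes at 1 TPM or more in at least 3 libraries (10476) were fitted as log2(TPM + 1), which understates differences of low genes, with limma 3.58.1 in R 4.3.3 (mean-variance trend, population as the only term, Benjamini-Hochberg over all tested genes). The 2-fold limit with an adjusted p under 0.05 follows the criterion of the study. The fit was tested on simulated data. Ratios were compared by exact two-sided permutation. Alternatives were a pseudocount of 0.1, other filters, median-of-ratios, quantile normalization, removal of 86 ribosomal protein genes, no trend, the replicate block, no fold limit, averaging CD8SP replicates 1 and 2, and leaving out each library. Genes named are the 10 receptors, called genes of the fixed lists, ligands at 10 TPM or more, and the nearest patterns. The others, such as Tox, Cd27 and single markers, were named after their values were seen. The receptors, lists and motifs were chosen with earlier results of these data known. Gene positions are from GENCODE M21 (GRCm38, the assembly of mm10), 1-based, and upstream sequences from RefSeq (GRCm38.p6). With blastn 2.17.0, no receptor had a copy of at least 95% identity over 200 nt in another annotated gene.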

Additional observations from a re-analysis of the deposited data

How the results depend on the processing

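The 4 called receptors stayed at 3 or 4 under every alternative with the 2-fold limit. Cd28, Icos and Cd160 were called in all of them, and Btla was lost in the settings given above. Across the fits that each left out 1 library, 3 or 4 receptors and 817 to 1202 genes were called. The count over all genes (1019) became 2183 on the adjusted p alone, and it was 731 with a filter of 5 TPM. Among the genes called, 81.5% were higher in CD4SP, against 62.0% after median-of-ratios, 57.1% after quantile normalization and 72.3% without ribosomal protein genes, where the median log2 fold change of all genes was 0.00017, -0.015 and 0.138 in place of 0.28. Lag3 (-0.0074) and Cd96 (-0.086) changed sign after median-of-ratios, and Havcr2 (-0.039) after quantile normalization. All other receptors kept their sign in all 15 alternatives.

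Libraries share only replicate numbers, and the deviations of same-numbered libraries correlated at -0.017 to 0.0887 across genes. With the replicate block 4 receptors and 997 genes were called, and the adjusted p of Pdcd1 rose to 0.0873. The list genes called numbered 26, and 21 to 35 under the alternatives. Pairs without overlap were 5 of 8, and 5 or 6 with a library left out. Depth is unknown, so limits of detection cannot be given for genes listed at 0.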
